A study of Mus musculus with 6 samples.

Results

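The dystrophin glycoprotein complex is a set of membrane and membrane-associated proteins that ties the actin cytoskeleton of a muscle cell to the surrounding basement membrane. Dystrophin, or its relative utrophin, binds actin on the inside, dystroglycan spans the membrane and binds laminin on the outside, and the sarcoglycans with sarcospan form a side complex that steadies dystroglycan. Dystrobrevins and syntrophins attach on the inner face, and mutations in several of these genes cause muscular dystrophies. Of the 8 genes chosen by symbol (*Dmd*, *Utrn*, *Dag1*, *Sgca*, *Sgcb*, *Sgcd*, *Sspn* and *Dtna*), 7 were among the 14548 genes analysed, and *Dmd*, the gene for dystrophin, was not analysed here.

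RNA-seq was compared between 3 wild-type (WT) and 3 MSTN-KO libraries of the mouse cell line C2C12, whose cells are myoblasts that can fuse into muscle fibres. The WT cells were C2C12 cells of WT genotype and the MSTN-KO cells were the line C11, in which Cas9 and a guide RNA to exon 3 of the myostatin gene had been used. The labels name the strain C11 for the WT libraries too, and the groups were taken from the genotype. Both groups were cultured myoblasts, no other treatment of them is described, and all MSTN-KO libraries came from 1 edited line, so loss of myostatin and other differences of that line cannot be told apart. The labels give no separate cultures behind the replicates, so the p-values measure the spread between these libraries, which may be technical.

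Expression was given as FPKM, the fragments on a gene scaled to the length of its exons and to the mapped fragments of the library. Summed over genes, FPKM ranged from 723705 to 764524 in WT and from 856314 to 999579 in MSTN-KO, and the number of fragments is unknown. *Mstn* itself was at or below 0.0586 FPKM in all 6 libraries, too low to check the labels by. Of the myoblast markers, *Myod1* was at 126 to 167 FPKM in WT and at 90.8 to 104 FPKM in MSTN-KO, *Des* at 576 to 807 and 325 to 409 FPKM, and *Pax7* at 0.836 to 1.32 and 1.501 to 3.02 FPKM. Endothelial and Schwann cell markers, 4 of each, stayed under 1 FPKM in all libraries, while *Col3a1*, a collagen gene on the fibroblast list, was at 172 to 240 FPKM in WT and at 310 to 367 FPKM in MSTN-KO. On the same list *Dcn* was lower without overlap, at 1.47 to 2.83 and 0.444 to 1.40 FPKM, and *Col1a1* and *Pdgfra* overlapped between the groups.

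RNA of 5 of the 7 complex genes was lower in the MSTN-KO group: *Sgca*, *Sgcb* and *Sgcd*, which encode alpha-, beta- and delta-sarcoglycan, *Sspn*, which encodes sarcospan, and *Dtna*, which encodes alpha-dystrobrevin. *Dag1* (dystroglycan) and *Utrn* (utrophin) did not pass the test, and 0 of the 7 were called higher (0 also at an unadjusted p under 0.05). The 5 genes are 71.4% of the 7, while 8.96% of all genes tested were lower and 8.78% higher (limma, adjusted p under 0.05). The genes were chosen with earlier results of these data known, so this share is not independent of them. The same 5 genes had no overlap between the groups, against 18.1% of all genes tested that were lower without overlap. The median log2 fold change of the 7 genes was -0.65, while that of all genes tested was -0.00078. *Sgcd* reached 1 FPKM, the level needed for testing, only in WT libraries and so had to be lower in MSTN-KO. Over the other 6 genes, 4 were called lower and the median was -0.59. By the cutoffs for differentially expressed genes (unadjusted p under 0.05 and log2 fold change below -1), which 2.3% of all genes met, only *Sgca* and *Sgcd* of the 7 counted as downregulated. Leaving out 1 library at a time, the count of 5 was 3 without WT replicate 1 and 2 without WT replicate 2. It was 3 without MSTN-KO replicate 1 and 3 without MSTN-KO replicate 3. It stayed at 5 without WT replicate 3 or MSTN-KO replicate 2. In bulk RNA, fewer cells that express a gene and less RNA per cell cannot be told apart.

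**Figure D1:**
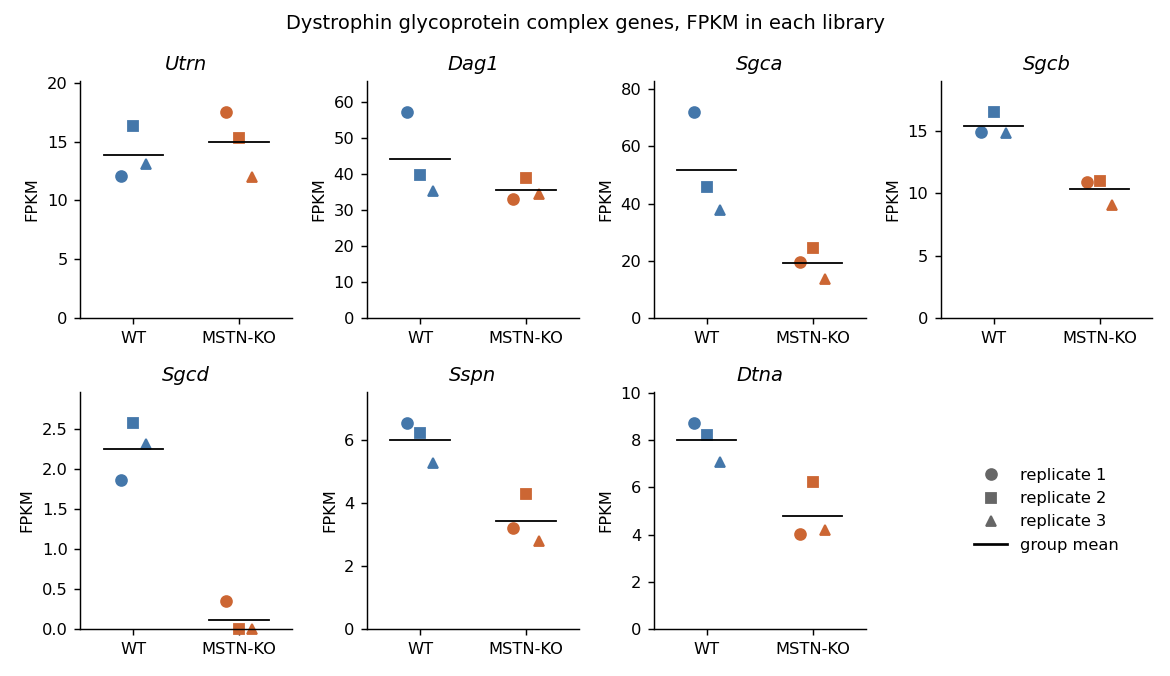
FPKM (vertical axis, from 0, a scale for each gene) of the 7 complex genes in the 3 WT libraries (blue) and the 3 MSTN-KO libraries (orange), with marker shapes for the replicates and black lines for the group means. For *Sgca*, *Sgcb*, *Sgcd*, *Sspn* and *Dtna* every MSTN-KO library lies below every WT library, while those of *Utrn* and *Dag1* overlap.

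RefSeq promoter windows of GRCm38.p6, from 250 bases before to 50 bases after an annotated start, were matched by symbol. They are covered for 6 of the 7 genes, and windows of *Dtna* are not reported here. Windows are shown for the pair with the largest falls, *Sgca* and *Sgcd*, for *Sgcb*, which fell less, and for *Utrn*, which was not called. The E-box, written CANNTG and the same on both strands, is the core of the sites bound by MyoD and myogenin, and its letters are in capitals. The windows are chr11:94976278-94976577 (minus strand) for *Sgca*, chr11:47379276-47379575 (minus) for *Sgcd*, chr5:73647688-73647987 (minus) for *Sgcb* and chr10:12861686-12861985 (minus) for *Utrn*.
Sgca: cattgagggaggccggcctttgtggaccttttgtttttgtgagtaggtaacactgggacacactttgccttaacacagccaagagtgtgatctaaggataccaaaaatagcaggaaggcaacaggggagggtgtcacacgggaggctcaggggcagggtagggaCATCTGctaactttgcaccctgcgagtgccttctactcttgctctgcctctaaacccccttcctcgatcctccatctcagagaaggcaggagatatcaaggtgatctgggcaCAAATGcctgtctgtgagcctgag
Sgcd: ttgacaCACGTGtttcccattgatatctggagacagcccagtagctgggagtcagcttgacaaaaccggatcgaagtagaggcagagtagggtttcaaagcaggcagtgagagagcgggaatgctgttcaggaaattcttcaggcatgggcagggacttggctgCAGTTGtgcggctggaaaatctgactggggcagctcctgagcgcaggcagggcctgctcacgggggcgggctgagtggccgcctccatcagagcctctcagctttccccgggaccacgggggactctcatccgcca
Sgcb: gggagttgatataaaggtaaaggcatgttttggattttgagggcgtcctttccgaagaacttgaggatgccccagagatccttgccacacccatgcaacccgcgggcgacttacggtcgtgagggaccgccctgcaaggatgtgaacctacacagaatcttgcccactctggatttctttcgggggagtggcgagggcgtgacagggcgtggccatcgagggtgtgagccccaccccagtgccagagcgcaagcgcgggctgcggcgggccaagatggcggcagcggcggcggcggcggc
Utrn: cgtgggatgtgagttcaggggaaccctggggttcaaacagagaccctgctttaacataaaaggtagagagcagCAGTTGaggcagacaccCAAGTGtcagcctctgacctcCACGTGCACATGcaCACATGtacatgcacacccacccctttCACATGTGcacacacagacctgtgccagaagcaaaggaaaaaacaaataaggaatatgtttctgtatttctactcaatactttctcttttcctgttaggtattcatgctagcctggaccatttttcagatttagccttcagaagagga
The *Sgca* and *Sgcd* windows each held 2 matches, and 39.6% of all 32851 windows held 2 or more. The *Sgcb* window held 0, and the *Utrn* window held 7, 2 of which overlap by 4 letters. Among windows not shown, the 2 of *Sspn*, which was called lower, held 0 and 1 matches. Both windows of *Dag1*, which was not called, held 1 match. At least 1 match is present in 72.3% of all windows, and 7 or more in 0.177%. The E-box CAGCTG, found in 16.3% of windows, and TTCCGG on either strand, found in 14.9%, had 0 matches in the 4 windows shown. The *Sgca* window begins its transcript at the end of the GENCODE gene, the *Sgcb* start lies 53 bases inside it, and the starts of *Utrn* and *Sgcd* lie 7630 and 609644 bases inside, at internal starts. A match is a run of letters and not a measured binding site.

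The sarcoglycans are small membrane glycoproteins that assemble together before they reach the cell surface. *Sgca* (ENSMUSG00000001508, GRCm38 chromosome 11, 94962791 to 94976327), the subunit most restricted to striated muscle, had 72.0, 45.8 and 37.6 FPKM in WT replicates 1, 2 and 3, against 19.6, 24.4 and 13.8 FPKM across those of MSTN-KO. The lowest WT library was above the highest MSTN-KO library, and the WT libraries differed among themselves by 1.91 times. Its group means were 51.8 ± 18.0 (SD, n = 3) and 19.3 ± 5.33 FPKM, with a difference of -1.36 (standard error, SE, 0.23) on the log2(FPKM + 1) scale, which is the log2 fold change used throughout (adjusted p = 0.00154 by limma, as in all such values here). With each library left out in turn it lay between -1.56 and -1.10, and the call was kept each time.

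*Sgcd* (ENSMUSG00000020354, chromosome 11, 46896253 to 47988969), whose product forms a core with beta-sarcoglycan, was the lowest of the 7 genes. It had 1.86, 2.58 and 2.31 FPKM across the WT replicates, against 0.343 FPKM in MSTN-KO replicate 1, and it was listed at 0 in MSTN-KO replicates 2 and 3. The difference on the log2 scale was -1.55 (SE 0.19) at an adjusted p of 9.82e-05, and with a pseudocount of 0.1 in place of 1 it was -3.83. *Sgcd* passed the filter of 1 FPKM only through the WT libraries and so had to be lower in MSTN-KO, which leaves 4 of 6 genes called without it, while the other 6 genes were at 1 FPKM or more in every library.

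*Sgcb* (ENSMUSG00000029156, chromosome 5, 73632749 to 73647790), the partner of *Sgcd* in that core, fell less, and its WT libraries differed by 1.11 times, the least of the 7 genes. It had 14.9, 16.5 and 14.9 FPKM across the WT replicates, against 10.9, 11.0 and 9.04 FPKM across those of MSTN-KO. All 3 MSTN-KO values lay below the WT values, with means of 15.4 ± 0.951 and 10.3 ± 1.10 FPKM (SD, n = 3). The log2 fold change was -0.54 (SE 0.14, adjusted p = 0.0170). The call was lost without WT replicate 2 (-0.49, adjusted p = 0.101) and kept without each other library.

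*Sspn* (ENSMUSG00000030255, chromosome 6, 145931641 to 145965223) encodes a membrane protein that spans the membrane several times and joins the sarcoglycans. It had 6.56, 6.23 and 5.26 FPKM across the WT replicates, against 3.20, 4.28 and 2.80 FPKM across those of MSTN-KO. The groups did not overlap, and the log2 fold change was -0.67 (SE 0.17, adjusted p = 0.0153). The MSTN-KO mean, 3.43 ± 0.766 FPKM (SD, n = 3), was 56.9% of the WT mean of 6.02 ± 0.674 FPKM. The call was lost, with adjusted p between 0.0512 and 0.0667, without WT replicate 1 or 2 or without MSTN-KO replicate 1 or 3.

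*Dtna* (ENSMUSG00000024302, chromosome 18, 23415135 to 23659715) encodes the dystrobrevin that carries syntrophins to the complex in muscle. It had 8.74, 8.21 and 7.06 FPKM across the WT replicates, against 4.03, 6.21 and 4.18 FPKM across those of MSTN-KO. MSTN-KO replicate 2 came closest to the WT range, and the groups did not overlap. The log2 fold change was -0.65 (SE 0.17, adjusted p = 0.020). The call was lost without the filter on low values (adjusted p = 0.0637) and, at 0.0705 to 0.0856, without the same 4 libraries as for *Sspn*.

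*Dag1* (ENSMUSG00000039952, chromosome 9, 108204634 to 108263958) encodes both dystroglycan subunits, the laminin receptor and its membrane-spanning partner, as 1 precursor. It had 57.3, 39.9 and 35.5 FPKM across the WT replicates, against 33.3, 39.1 and 34.5 FPKM across those of MSTN-KO. WT replicate 1 stood above the other 5 libraries, whose values overlapped. The log2 fold change was -0.28 (SE 0.17, adjusted p = 0.262) and -0.08 without WT replicate 1.

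*Utrn* (ENSMUSG00000019820, chromosome 10, 12382188 to 12869365) encodes utrophin, which takes the place of dystrophin in immature muscle and in many other cells. It had 12.1, 16.4 and 13.1 FPKM across the WT replicates, against 17.5, 15.3 and 11.95 FPKM across those of MSTN-KO. The groups overlapped, with means of 13.9 ± 2.21 and 14.9 ± 2.80 FPKM (SD, n = 3). The log2 fold change was 0.09 (SE 0.17, adjusted p = 0.725), and it was -0.022 without MSTN-KO replicate 1 and -0.17 with every library scaled to 1000000, which moves the median of all genes to -0.26.

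**Figure D2:**
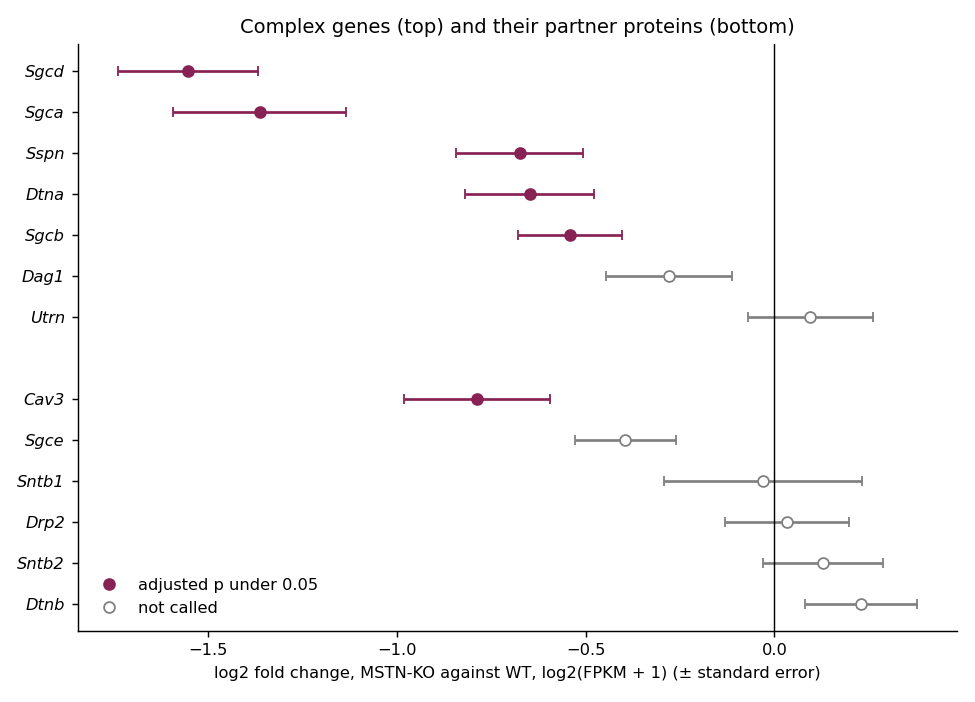
Log2 fold change of MSTN-KO against WT on the log2(FPKM + 1) scale (horizontal axis), with bars for 1 standard error, for the 7 complex genes (top) and 6 tested genes of partner proteins (bottom). Filled points have an adjusted p under 0.05, and among the complex genes they run from -1.55 for *Sgcd* to -0.54 for *Sgcb*. *Cav3* is listed at 0 in MSTN-KO and *Sgcd* at 0 in MSTN-KO replicates 2 and 3, so their places depend on the pseudocount. Both passed the filter only through WT libraries and so had to be lower.

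Per length, the level of the 7 genes in WT was highest for *Sgca* and *Dag1*, whose libraries overlapped, followed by *Sgcb* and *Utrn*, which overlapped too, and then by *Dtna*, *Sspn* and *Sgcd*, each without overlap with the next. In MSTN-KO the level of *Dag1* (35.6 ± 3.07 FPKM, SD, n = 3) was the highest, and each of its libraries was above each library of *Sgca*. *Sgca* and *Utrn* overlapped there, *Utrn* was above *Sgcb* in all libraries, *Dtna* and *Sspn* overlapped, and *Sgcd* was lowest. The order of *Sgca* and *Dag1* within a library was that *Sgca* was higher in the 3 WT libraries and lower in the 3 MSTN-KO libraries.

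Ratios between genes of 1 library, taken on FPKM + 1, depend on library scaling only through the added 1, and 4 pairs were compared. The log2 ratio of *Sgca* to *Sgce*, which encodes epsilon-sarcoglycan, was 2.11, 1.21 and 1.03 across the WT replicates. Across the MSTN-KO replicates it was 0.53, 0.93 and -0.01. The groups did not overlap, and the difference of the means was -0.97, while it was -0.82 for the ratio of *Sgca* to *Sgcb*. The ratio of *Sgcd* to *Sgcb* was between -2.48 and -2.26 in WT and between -3.58 and -3.15 in MSTN-KO, a difference of -1.01. In MSTN-KO replicates 2 and 3 *Sgcd* was listed at 0, so its side of the ratio was only the added 1. With 0.1 added instead, the difference was -3.25. The ratio of *Dtna* to *Dtnb*, the pair of dystrobrevins, was 1.29, 1.23 and 0.89 in WT. In MSTN-KO it was 0.16, 0.53 and 0.09, a difference of -0.88. For each of the 4 ratios the two-sided exact permutation test gave p = 0.1 (adjusted p = 0.1), the smallest that 3 libraries against 3 allow, so none could pass 0.05. All 4 stayed lower with each library left out, but without WT replicate 1 the difference was -0.64 for *Sgca* to *Sgce* and -0.54 for *Sgca* to *Sgcb*.

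The summed FPKM of *Sgca*, *Sgcb*, *Sgcd* and *Sgce* was 105, 84.1 and 72.7 across the WT replicates, against 44.2, 47.8 and 36.7 across those of MSTN-KO. *Sgca* took 68.8%, 54.4% and 51.8% of this sum in WT and 44.5%, 51.1% and 37.6% in MSTN-KO, so the highest MSTN-KO share lay just under the lowest WT share. *Sgce* took 15.2%, 22.8% and 24.6% in WT and 30.01%, 25.9% and 37.8% in MSTN-KO. *Sgcb* took 14.3% to 20.4% in WT and 23.0% to 24.7% in MSTN-KO, a larger share without overlap although its FPKM was lower. The share of *Sgcd* was 1.78% to 3.18% in WT and at most 0.776% in MSTN-KO. Shares sum to 100% in a library, so they are not independent of each other, and this breakdown was added after the values had been seen.

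**Figure D3:**
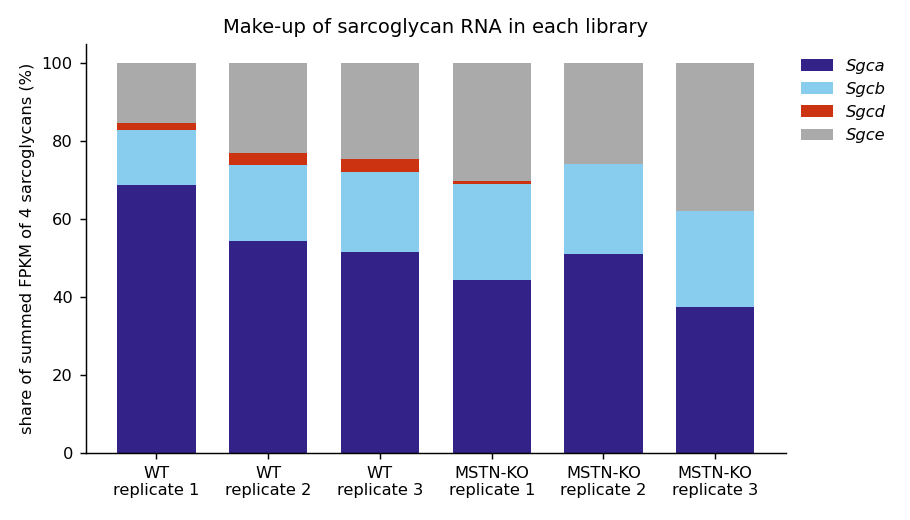
Share of the summed FPKM of 4 sarcoglycan genes (vertical axis, percent) taken by each gene in the 3 WT and the 3 MSTN-KO libraries, as stacked bars that start at 0. The grey *Sgce* part is larger in each MSTN-KO library (25.9% to 37.8%) than in each WT library (15.2% to 24.6%), and the red *Sgcd* part is 0 in MSTN-KO replicates 2 and 3.

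Of 10 listed partner proteins, 8 were present and 6 passed the filter. Among the 6, 1 was lower, 0 were higher (0 also at an unadjusted p under 0.05 by limma) and 5 were not called. Over all genes tested, 8.96% were lower and 8.78% higher. The median log2 fold change of the 6 was 0.0015. The count of lower genes was 2 without WT replicate 1 and 0 without WT replicate 2. *Cav3*, the caveolin of muscle membranes, had 0.598, 1.18 and 0.473 FPKM in WT and was listed at 0 in all 3 MSTN-KO libraries (adjusted p = 0.0140). It passed the filter only through WT replicate 2 and so had to be lower, and with a filter on the mean it was left out. Over the other 5 genes, 0 were called and the median was 0.033.

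*Sgce* had 17.7 ± 1.69 FPKM in WT and 13.2 ± 0.752 FPKM (SD, n = 3) in MSTN-KO, without overlap, and did not pass (-0.40, adjusted p = 0.0584). *Dtnb*, the dystrobrevin of brain and other tissues, had 3.09 ± 0.227 FPKM in WT and 3.79 ± 0.261 FPKM (SD, n = 3) in MSTN-KO, higher without overlap, and did not pass either (0.23, adjusted p = 0.308). The syntrophins *Sntb1* (-0.03) and *Sntb2* (0.13) and the dystrophin relative *Drp2* (0.03) did not pass, with adjusted p of 0.61 to 0.952 and overlap between the groups. *Sgcz* and *Nos1*, the neuronal nitric oxide synthase, were at or below 0.0652 FPKM in every library, under the filter. *Sntg1* and *Sntg2* were not analysed here.

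Dystroglycan binds laminin only once its sugar chains have been built by a series of enzymes of the endoplasmic reticulum and Golgi. Of 15 listed genes for these enzymes, 14 were present and 12 tested, 1 of which was higher and 1 lower. Over all genes tested, 8.78% were higher and 8.96% lower. The median log2 fold change of the 12 was 0.14, and 10 of them leaned higher and 2 lower. At an unadjusted p under 0.05 by limma, 2 were higher, *Dpm3* and *Dpm1* (0.39), and 1 was lower. *Dpm3*, a subunit of dolichol-phosphate mannose synthase, had 183, 172 and 162 FPKM in WT and 291, 302 and 330 FPKM in MSTN-KO (0.83, adjusted p = 0.000483). *B3galnt2*, an N-acetylgalactosaminyltransferase of the core sugar, had 4.70, 4.47 and 5.999 FPKM in WT and 2.66, 2.29 and 2.12 FPKM in MSTN-KO (-0.85, adjusted p = 0.00352). It lies on chromosome 13, whose 410 tested genes had a median of -0.34, and the part of this in its change was not tested. *Pomt1* (0.26) and *Pomt2* (-0.06), which add the first mannose, were among the 10 genes not called.

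Of 10 listed matrix ligands, 8 were tested, 2 were lower and 0 higher (1 at an unadjusted p under 0.05, *Lama5*), with a median log2 fold change of -0.15. Over all genes tested, 8.96% were lower and 8.78% higher. *Bgn*, biglycan, a small proteoglycan that binds dystroglycan and sarcoglycans, had 30.3, 28.1 and 35.4 FPKM in WT and 7.44, 6.93 and 6.34 FPKM in MSTN-KO, the largest fall among the 8 (-2.03, adjusted p = 8.73e-07). *Lama2*, the laminin chain of the muscle basement membrane, had 6.43, 5.22 and 4.19 FPKM in WT and 1.79, 1.88 and 1.14 FPKM in MSTN-KO (-1.27, adjusted p = 0.000532). *Lamb1*, *Lamb2*, *Lamc1*, *Lama5*, *Agrn* and *Hspg2* were not called, with log2 fold changes from -0.39 for *Hspg2* to 0.41 for *Lama5*.

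The integrin alpha7 beta1 is the other main laminin receptor of muscle. Together with cytoskeletal linkers it made a list of 16 genes, 14 of them tested. Among the 14, 5 were lower and 0 higher (0 also at an unadjusted p under 0.05), with a median log2 fold change of -0.03. Over all genes tested, 8.96% were lower and 8.78% higher. *Itgb1* had 176, 198 and 212 FPKM in WT and 132, 146 and 97.0 FPKM in MSTN-KO (-0.66, adjusted p = 0.0113). *Itga7* had 367, 285 and 236 FPKM in WT and 164, 227 and 214 FPKM in MSTN-KO (-0.54, adjusted p = 0.0440). *Vcl*, vinculin, was lower (-0.80) and so was *Sync*, a partner of desmin (-0.60), both without overlap between the groups. *Vcl* lies on chromosome 14, whose 367 tested genes had a median of -0.29, and the part of this in its change was not tested. *Dysf*, dysferlin, was called at -0.67 although MSTN-KO replicate 1, at 0.740 FPKM, reached WT replicate 3, at 0.739 FPKM. It passed the filter only through WT libraries, which favours a lower value in MSTN-KO. Over the other 13 genes, 4 were called lower and the median was -0.017. *Plec* and *Tln1* were not called. The count of 5 was 1 without WT replicate 1, 2 without WT replicate 2, 3 without MSTN-KO replicate 1, 2 without MSTN-KO replicate 3 and 2 without the filter.

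Muscle differentiation markers, such as *Myog* and the contractile protein genes, were lower in MSTN-KO too. Of 25 listed, 23 were tested, and all 23 were lower in MSTN-KO, against 8.96% of all genes tested. The median log2 fold change of the 23 was -2.14. Of these, 6 (*Myh1*, *Myh3*, *Ckm*, *Casq2*, *Cacna1s* and *Lmod3*) passed the filter only through WT libraries and so had to be lower, and the other 17, all called lower, had a median of -2.27. *Myog*, the factor that starts terminal differentiation, had 175, 148 and 47.3 FPKM in WT and 7.33, 10.2 and 11.6 FPKM in MSTN-KO. The largest falls were those of the light chain genes *Mylpf* (-4.02) and *Myl1* (-3.63), the slow troponin gene *Tnni1* (-3.76) and *Myog* (-3.36). *Myl1*, *Tnni1* and *Myog* lie on chromosome 1, whose 627 tested genes had a median of -0.25, and the part of this was not tested. The summed FPKM of the 24 markers present was 2545, 2522 and 1334 across the WT replicates, against 540, 632 and 713 across those of MSTN-KO. WT replicate 3 was at a median of 31.1% of the mean of WT replicates 1 and 2 over 24 of these markers. Over the 7 complex genes it was at a median of 83.3%, from 63.9% for *Sgca* to 104% for *Sgcd*. MSTN-KO replicate 3 had the highest summed marker FPKM of its group, and also the highest FPKM summed over all genes. *Sgca*, *Sgcb*, *Sspn* and *Utrn* were lowest of the group in that library, while *Dtna* and *Dag1* were lowest in MSTN-KO replicate 1. The part of differentiation state in the fall of the complex genes was not tested. Of the 9 listed myoblast markers, 8 were tested, with 5 lower and 1 higher (8.96% and 8.78% over all genes tested). *Ncam1* (-1.001), *Des* (-0.96) and *Megf10* (-0.87) were lower, and *Pax7*, a gene of muscle stem cells, was higher (0.64). *Des* and *Itga7*, 2 of the 5 lower myoblast markers, are also counted among the differentiation markers and the linkers. The leukocyte, adipocyte and fibroblast lists had 1, 1 and 3 tested genes, of which *Fabp4* (0.83) and *Col3a1* (0.68) were higher and *Dcn* (-0.73) lower, and *Fabp4* passed the filter only through MSTN-KO libraries and so had to be higher.

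**Figure D4:**
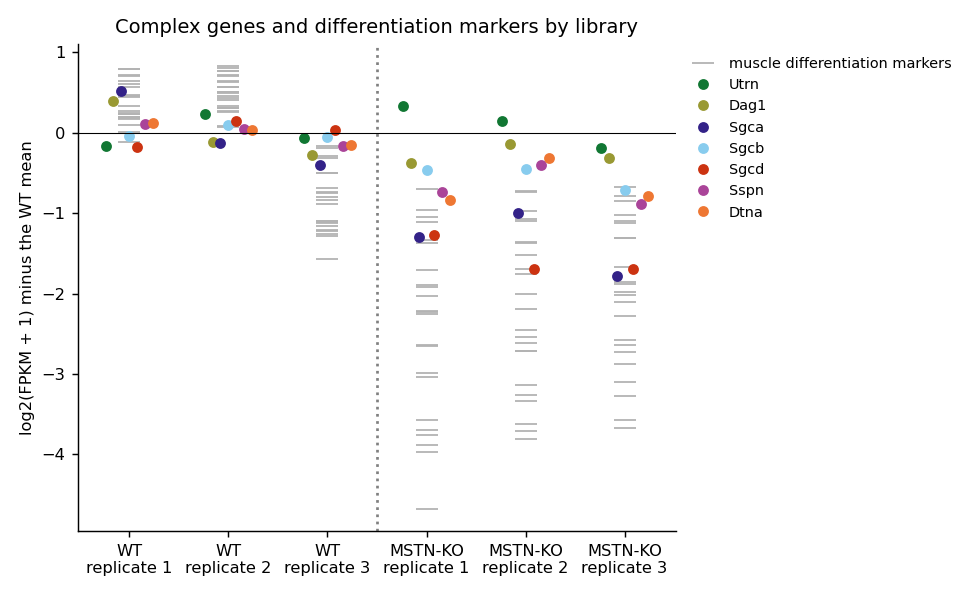
Log2(FPKM + 1) minus the WT mean (vertical axis) in each library for the 7 complex genes (coloured points) and 23 muscle differentiation markers (grey dashes). In WT replicate 3 the markers lie at 14.0% to 84.1% of their mean FPKM in WT replicates 1 and 2, and the complex genes at 63.9% to 104%.

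Genes outside the lists were ranked by likeness to each called complex gene, as the root mean square difference of log2(FPKM + 1) profiles over the 6 libraries, each centred on its own mean. *Sspn* and *Dtna* were close to each other at 0.06, *Sspn* being the nearest of 10836 genes to *Dtna* and *Dtna* the second nearest to *Sspn*. *Faxc* was nearest to *Sspn* (0.02) and, outside the lists, to *Dtna* (0.07). *Dip2c* and *Ccdc80* followed for *Sspn* and *Bace2* and *Mex3b* for *Dtna*. The nearest to *Sgca* were *Tspan32* (0.13), *Sema3d* and *Serinc5*, and those to *Sgcd* were *Spint1* (0.12), *Artn* and *Cgnl1*. Those to *Sgcb* were *Jarid2* (0.06), *1110002E22Rik* and *Ccnj*. The libraries form 2 groups of 3, so genes with a like difference between the groups rank high.

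**Figure D5:**
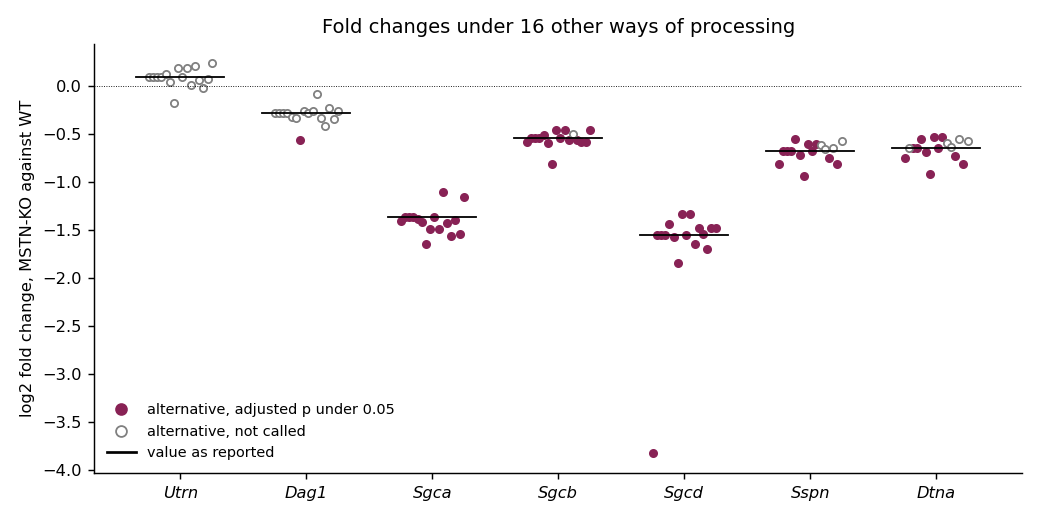
Log2 fold change of MSTN-KO against WT (vertical axis) of the 7 complex genes under each of 16 alternatives, 6 of which leave out 1 library (points, filled where the adjusted p was under 0.05), with black lines for the values as reported. *Sgca* (-1.65 to -1.10) and *Sgcd* (-3.83 to -1.33) are called under all 16, and *Utrn* (-0.17 to 0.24) under none. *Sgcd* passed the filter only through WT libraries and so had to be lower, and its place depends on the pseudocount.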

How the data were processed

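The authors sequenced RNA of both groups on an Illumina HiSeq system and deposited FPKM values, 1 library per file. The submitters' processing notes name Bowtie 0.12.2 and mm8. The annotation, quantifier, strand setting and gene filter are not given in the sources used here. Files hold no coordinates, and those printed are of GENCODE M21 on GRCm38, matched by Ensembl identifier.

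The 10837 of 14548 genes that reached 1 FPKM in any library were fitted as log2(FPKM + 1) with limma 3.58.1 in R 4.3.3, with a mean-variance trend and group as the only term. Genes were called at a Benjamini-Hochberg adjusted p under 0.05 over all genes tested. Low values did not fall on steps of single reads (the commonest ratio to WT replicate 1 held 1.80% to 3.07% of genes under 0.15 FPKM), so no depth or counting interval is given. In simulated data for the 10837 genes, 200 of those above a set mean expression differed by 2 log2 units. The fit recovered 97% of the 200 and called 9 unchanged genes. Smaller changes, such as those of *Sgcb*, *Sspn* and *Dtna*, and changes in low genes such as *Sgcd* were not simulated.

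All complex genes and partner proteins were named, and from each other list up to 4 called genes with the largest change. Others are named as examples, chosen after their values were seen. The members and lists were chosen with earlier results of these data known. For 1 of 119 listed genes an older symbol was used, and 18 were not analysed here. Some other genes of these lists are not reported here. Promoter windows are RefSeq's. Other steps used Python 3.11.15, mgcv 1.9.3 (length and GC correction), scipy 1.17.1 and matplotlib 3.10.9.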

Additional observations from a re-analysis of the deposited data

How the results depend on the processing

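*Sgca* and *Sgcd* kept their direction and their call under all 16 alternatives. *Sgcd* passed the filter only through WT libraries and so had to be lower, and with a pseudocount of 0.1 it was at -3.83. Scaling to a sum of 1000000, which moves the median of all genes to -0.26, turned *Utrn* to -0.17, brought *Dag1* to -0.56 (limma adjusted p = 0.0471) and gave 350 genes higher and 2367 lower over all genes, with 510 downregulated DEGs. A pseudocount of 0.1 gave 254 upregulated and 500 downregulated DEGs, against 131 and 249, and a ratio of *Sgcd* to *Sgcb* lower at -3.25. Without the filter *Dtna* was not called (-0.65), and glycosylation enzymes called lower numbered 2 and linkers called lower 2. Partner proteins called lower were 0 with the filter on the mean, which left out *Cav3*, and 2 with 75th percentile scaling and after scaling to 1000000. Glycosylation enzymes called higher were 2 after quantile normalization and after the length and GC correction, linkers called higher 1 under both, and matrix ligands called higher 1 after that correction. For settings other than leaving out a library, the cause was not tested.

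The replicate numbers are shared by the groups but gave no sign of pairing, since same-numbered libraries correlated at -0.1421 to -0.0153 and 0 of 6 libraries correlated best with its own number. The replicate block left the 5 calls of complex genes in place, with *Sgca* at -1.36. The block together with the length and GC correction gave 2 glycosylation enzymes and 1 matrix ligand called higher.

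With each library left out, which leaves fewer samples, *Utrn* ran from -0.022 (without MSTN-KO replicate 1) to 0.24, *Sgcb* from -0.59 to -0.46, *Sspn* from -0.81 to -0.57 and *Dtna* from -0.81 to -0.55. Complex genes called lower numbered 2 to 5, all genes called higher 419 to 1175 and lower 611 to 1233, partner proteins called lower 0 to 2, matrix ligands called higher 0 to 1 and linkers called lower 1 to 6. The ratio of *Dmd* to *Utrn* was not run.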
